A study of Homo sapiens with 48 samples.

Results

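The RNAs described here are the small structured noncoding RNAs: the short folded transcripts that form the core of the spliceosome, the signal recognition particle, the 7SK particle and the particles that modify ribosomal and spliceosomal RNA. They were taken by symbol, as the genes named RNU, RNVU, RN7S, SCARNA, SNORA, SNORD or RNY followed by their own identifier, with RMRP, RPPH1 and TERC. This gave 97 of the 14685 genes in the count tables. RMRP, RPPH1, TERC, RN7SK and RN7SL2 were not analysed here. By class, the 97 were 19 box H/ACA and 15 box C/D small nucleolar RNAs (snoRNAs), 6 small Cajal body RNAs (scaRNAs), 13 copies of 7SL, 11 of 7SK, 15 of U6, 6 of U1, 4 of U4atac, 3 of U5, 3 of U2 and 1 each of U7 and Y RNA. By their current symbols 47 of them are numbered pseudogenes, among them all 11 copies of 7SK. RNVU1-34 is not counted among these, though the GENCODE 29 annotation (build GRCh38) names it RNU1-85P. In that annotation 72 lie within another gene on the same strand, 69 of these in an intron and 3 in an exon.

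The cells were HEK293T, a human embryonic kidney line, and all of them, controls included, carried a plasmid for NCBP1 fused to the Halo protein. NCBP1 is the larger of the cap-binding proteins of the nucleus. In the T-REX arm the Halo tag held a light-releasable precursor of the lipid-derived electrophile HNE, and light freed HNE beside NCBP1. RNA was taken 3, 6 and 12 h later from this arm and from the arms light alone, probe alone and DMSO, with 4 replicates in each of the 12 groups, or 48 libraries. The control arms are labelled UV, Pre and DMSO. The study's methods list the light alone control of T-REX as given probe as well as light, which would not set it apart from T-REX itself, so what those cells received is not settled. The overexpression was plain in every library: NCBP1 lay between 30797 and 92201 CPM (counts scaled to library size), and its mean in a group was highest for probe alone at 6 h (82943 CPM) and lowest for DMSO at 12 h (34642 CPM). The level comes from a transient transfection. Of the kidney-line markers looked up, NEFL, NEFM, VIM, KRT8, KRT18, LIN28B and EYA1 were measured in every library, from 4.39 CPM for KRT8 to 668 CPM for VIM, and PAX2 had no row. The blood marker PTPRC, HBB of red cells, ALB of liver and PECAM1 of endothelium had no row either, and COL1A1 of fibroblasts stayed between 2.13 and 6.07 CPM.

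As background, the cap-binding complex takes hold of the cap of nearly every polymerase II transcript in the nucleus. For the spliceosomal RNAs U1, U2, U4 and U5 it recruits the adaptor PHAX, which carries them to the cytoplasm for assembly with Sm proteins, and for capped snoRNAs such as U3 the same adaptor serves on the way to the nucleolus. Other members have no cap of this kind. The 7SL, 7SK, U6 and Y RNAs are made by polymerase III, and most snoRNAs and scaRNAs are trimmed out of the introns of host genes. By name, 22 of the 97 belonged to families that polymerase II transcribes and caps, 40 to polymerase III families, and 35 were intron-encoded. Of the 22, 10 are numbered pseudogenes, and of the 40, 37, and how these copies are transcribed was not tested.

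The family is dominated by RN7SL1, the RNA scaffold of the signal recognition particle that targets secreted proteins to the endoplasmic reticulum. It differs from its near twin RN7SL3 at 7 of 299 bases in GENCODE 29. Of the 50-base windows of RN7SL3 35.2%, and of RN7SL1 all, also occur in the transcript of another gene. RN7SL1 lies inside an exon of the annotated gene AL139099.4, so its share does not by itself stand for further copies. Reads can be divided between copies or overlapping genes in ways the counts do not record.

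The 7SK family, whose parent holds the elongation factor P-TEFb in check, is measured here only through its genomic copies. Shown next, from GENCODE 29 and written 5′ to 3′ with T for U, are RN7SKP80, by far the most abundant of these, the first 300 bases of RN7SKP90, the copy called against DMSO at 3 h, and the first 300 bases of RN7SKP78, a copy that was lower where the others were higher, in T-REX 3 h replicate 3. Capitals mark bases not matched in the parent RN7SK.
RN7SKP80: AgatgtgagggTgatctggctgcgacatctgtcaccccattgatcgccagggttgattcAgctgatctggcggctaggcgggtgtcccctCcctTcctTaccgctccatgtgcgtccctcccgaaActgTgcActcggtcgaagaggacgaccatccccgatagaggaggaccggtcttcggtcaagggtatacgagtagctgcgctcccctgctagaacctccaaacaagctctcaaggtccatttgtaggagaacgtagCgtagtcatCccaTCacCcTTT
RN7SKP90: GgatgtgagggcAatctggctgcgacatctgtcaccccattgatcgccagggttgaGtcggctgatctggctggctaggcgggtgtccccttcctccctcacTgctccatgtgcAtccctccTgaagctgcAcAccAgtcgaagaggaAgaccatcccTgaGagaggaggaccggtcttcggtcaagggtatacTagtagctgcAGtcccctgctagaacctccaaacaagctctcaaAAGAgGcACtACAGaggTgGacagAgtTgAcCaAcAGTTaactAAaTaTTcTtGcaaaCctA
RN7SKP78: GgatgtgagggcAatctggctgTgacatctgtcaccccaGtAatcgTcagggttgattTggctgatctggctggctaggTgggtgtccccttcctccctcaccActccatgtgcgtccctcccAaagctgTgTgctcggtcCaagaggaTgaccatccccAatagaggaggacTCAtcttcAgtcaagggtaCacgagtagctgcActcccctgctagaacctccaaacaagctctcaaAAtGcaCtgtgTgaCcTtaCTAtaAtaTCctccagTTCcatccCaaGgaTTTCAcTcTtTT
Over their whole length RN7SKP80 was 94.0% identical to RN7SK, RN7SKP90 80.6% and RN7SKP78 82.1%.

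In most libraries these RNAs made up a small and even share of the counts, from 0.125% to 0.250% in 47 libraries with a median over all 48 of 0.170%. The exception was T-REX 3 h replicate 3, with 0.394%. Library totals ran from 23952455 to 37099535 counts. RN7SL1, which lies inside an exon of the annotated gene AL139099.4 on chromosome 14, alone gave 35.4% to 61.0% of all counts of the family. Its mean was 966 CPM over the 48 libraries, ahead of RN7SKP80 with 312 CPM, RN7SL3 with 51.8 CPM, SNORD3A with 49.3 CPM and SCARNA5 with 46.8 CPM. Per kilobase of annotated length the order at the top was the same, with 3232 CPM for RN7SL1, 1102 CPM for RN7SKP80 and 173 CPM for RN7SL3. By annotation RPS29 lies antisense to RN7SL1, and SERHL2 antisense to RN7SKP80, itself in an intron of RRP7BP. Whether these genes add to the counts cannot be told, since how strand was used in counting is not given. Only 31 of the 97 had a mean of at least 100 counts, and the other 66 had a mean below that. Libraries of this kind recover fragments of short RNAs poorly, so that a level here is not the abundance of the RNA in the cell. In bulk RNA, fewer cells of a type and less RNA per cell cannot be told apart.

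At 3 h the T-REX libraries gave higher values than each control for most of the family, but hardly any single RNA passed the test. Part of the rise, that of the 7SK copies above all, sat in 1 library, T-REX replicate 3. Over the 97 RNAs that library lay near the median of its time (median log2 deviation -0.007, 47 RNAs above). T-REX replicate 1 lay highest by this measure (0.275, 79 RNAs above). Of the 97 fold changes 64 were positive with light alone as the control, 77 with probe alone and 70 with DMSO. Their median log2 fold changes were 0.25, 0.20 and 0.27, beside 0.00, 0.02 and 0.03 for all 14685 genes. With edgeR's quasi-likelihood test at a Benjamini-Hochberg adjusted p of 0.05 over all genes, 0 members were called against light alone, where 0.197% of all genes were called, and 0 against probe alone, where 1.05% were. At an unadjusted p of 0.05 the numbers were 37 and 8 members, beside 14.8% and 18.0% of all genes, and with DESeq2 2 and 1 were called, beside 2.75% and 3.98%. Adding the 2 deposited factors of unwanted variation to the fit raised the calls to 32 against light alone (30 higher) and 30 against DMSO (26 higher), with 4 against probe alone. The shares of all genes in that fit were 11.8%, 20.8% and 17.4%. Against DMSO 1 was called, RN7SKP90, with 5.99% of all genes called. No member was called with 1 sign against 2 or more of the controls, which 0.947% of all genes were at 3 h, 0.136% at 6 h and 1.4% at 12 h. This rests on the fit: with the factors of unwanted variation 26 members met the rule at 3 h, 25 of them higher, beside 14.4% of all genes, and 4 at 12 h, all lower, beside 8.95%. DESeq2 gave 2 at 3 h, RN7SKP90 and SNORD17, both higher, beside 3.48%.

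RN7SKP90, a copy of 7SK on chromosome 11 that lies antisense to PLEKHA7, was the only member called at 3 h. It measured 41.6, 29.5, 68.2 and 17.6 CPM in the T-REX libraries and 16.5, 14.01, 17.8 and 14.4 CPM in the DMSO libraries. Light alone gave 11.9, 12.3, 11.03 and 13.4 CPM, and probe alone 23.2, 12.6, 23.5 and 18.7 CPM. Every T-REX library lay above the light alone libraries, whereas replicate 4 overlapped with DMSO and with probe alone. The log2 fold change was 1.33 ± 0.33 (SE, n = 4 against 4, adjusted p = 0.0355) over DMSO, 1.69 ± 0.34 over light alone (adjusted p = 0.0667) and 1.03 ± 0.33 over probe alone (adjusted p = 0.127). Without replicate 3 of T-REX the difference from DMSO was 0.92 ± 0.26 (adjusted p = 0.0604), and the call was also lost without T-REX replicate 1 (adjusted p = 0.0536), without light alone replicate 3, or without any of the 4 DMSO replicates, with adjusted p between 0.0501 and 0.108. At 6 h RN7SKP90 gave 19.6, 13.5, 28.5 and 24.1 CPM after T-REX, 15.3, 17.4, 16.8 and 15.2 CPM with light alone, 17.2, 14.7, 13.6 and 20.3 CPM with probe alone and 16.7, 18.5, 36.4 and 18.1 CPM with DMSO. At 12 h it gave 15.99, 13.9, 19.8 and 45.7 CPM after T-REX, 13.96, 19.6, 13.6 and 17.1 CPM with light alone, 27.6, 20.2, 30.6 and 20.7 CPM with probe alone and 31.1, 33.5, 24.1 and 11.8 CPM with DMSO. The arms overlapped at both later times, and single libraries far above their group recurred, in DMSO at 6 h and in T-REX at 12 h. Whether the antisense gene adds to these counts cannot be told, since how strand was used in counting is not given in the sources used here.

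**Figure D1:**
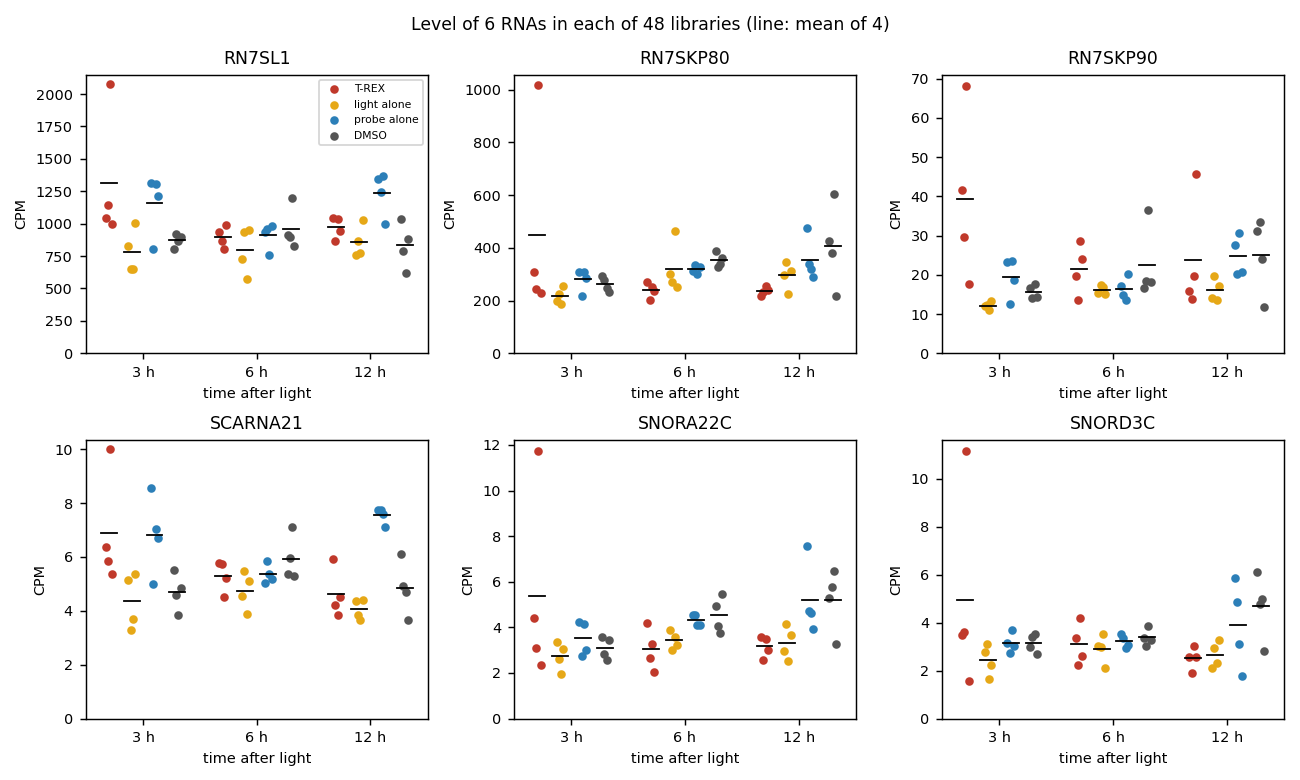
Level in CPM (y axis, linear from 0) of RN7SL1, RN7SKP80, RN7SKP90, SCARNA21, SNORA22C and SNORD3C in each of the 48 libraries, by time and arm. Points are libraries and lines are means of 4. In all 6 panels the highest point is T-REX 3 h replicate 3, for example 2076 CPM for RN7SL1 and 1016 CPM for RN7SKP80.

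RN7SL1 itself did not pass the test at 3 h. It measured 1040.0, 1146, 2076 and 1000.1 CPM after T-REX, 826, 651, 651 and 1008 CPM with light alone, 1312, 805, 1309 and 1214 CPM with probe alone and 804, 922, 863 and 895 CPM with DMSO. The T-REX libraries lay above all of DMSO but within the range of probe alone apart from replicate 3. The log2 fold changes were 0.75 ± 0.24 over light alone, 0.20 ± 0.24 over probe alone and 0.60 ± 0.24 over DMSO, with adjusted p of 0.177, 0.685 and 0.164. RN7SKP80 stood apart in replicate 3 alone, at 308, 242, 1016 and 228 CPM after T-REX, 199.7, 226, 189 and 255 CPM with light alone, 309.6, 219, 310.0 and 287 CPM with probe alone and 294, 277, 247 and 234 CPM with DMSO. Its log2 fold change over DMSO was 0.78 ± 0.40 (adjusted p = 0.288), and -0.02 ± 0.15 once replicate 3 was set aside, where RN7SL1 kept 0.29 ± 0.18.

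That library, T-REX 3 h replicate 3, pulled the family apart into RNAs that were far higher and RNAs that were lower than in the other 15 libraries of the time point. It held the highest value of the 16 for 39 of the 97 RNAs and the lowest for 24. Over all 14685 genes it was highest for 15.5% and lowest for 17.1%. The split differed by class. Of the 7SK copies 7 of 11 were at their highest, by 1.32 to 2.33 on the log2 scale over the median of the other libraries, and the remaining 4 were lower by 0.36 to 0.99. These 7 copies were 80.6% to 94.0% identical to RN7SK, and the 4 others 77.5% to 83.3%. Of the 7SL copies RN7SL1, RN7SL3, RN7SL4P and RN7SL5P were at their highest, by 0.80 to 1.85, and none of the 8 others compared was, with a range from -0.95 to 0.10, leaving out RN7SL832P, which is annotated at 1756 bases.

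The spliceosomal families split likewise. RNU6-8, 99.1% identical to RNU6-1, was higher by 1.17 in this library, at 4.26 CPM against 1.35 to 2.67 CPM in the other 15. All 14 numbered U6 pseudogenes were lower, by 0.08 to 1.28, and 8 of them were at their lowest. The 4 variant U1 genes RNVU1-15, RNVU1-27, RNVU1-30 and RNVU1-34 were all at their highest, by 0.93 to 1.38, while the pseudogene RNU1-72P was at its lowest. RNU4ATAC, part of the minor spliceosome, was at its highest and its 3 pseudogenes were lower, by 0.09 to 0.75. Of the 26 RNAs with a 50-base window shared with another annotated transcript, 20 were at their highest in this library, and of the 71 without such a window 19 were. A window can also be shared with a gene annotated over the same bases, as for RN7SL1, so this does not separate copies alone.

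Among the snoRNAs 17 of 34 were at their highest there and 7 at their lowest. The U3 genes, which serve in the first cuts of the ribosomal RNA precursor, were all at their highest, led by SNORD3A with 145 CPM against 61.8, 52.9 and 36.4 CPM in the other T-REX libraries. SNORA73B, a ribosomal RNA processing factor from an intron of RCC1, stood at 46.9 CPM against 18.1, 13.1 and 13.7 CPM. The intron-encoded SNORD15B stood at 13.0 CPM against 5.20, 4.21 and 3.29 CPM. SNORA72 fell the other way, at 4.30 CPM against 9.19, 8.45 and 7.82 CPM, as did SNORA66, SNORA71B and SNORA59B, each at its lowest of the 16. Of the 6 scaRNAs, 5 were at their highest. The first factor of unwanted variation, a score deposited for each library, was -0.546 here, the lowest of the 16 at 3 h, beside 0.561, 0.228 and -0.202 for the other T-REX libraries. What set this library apart was not tested.

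**Figure D2:**
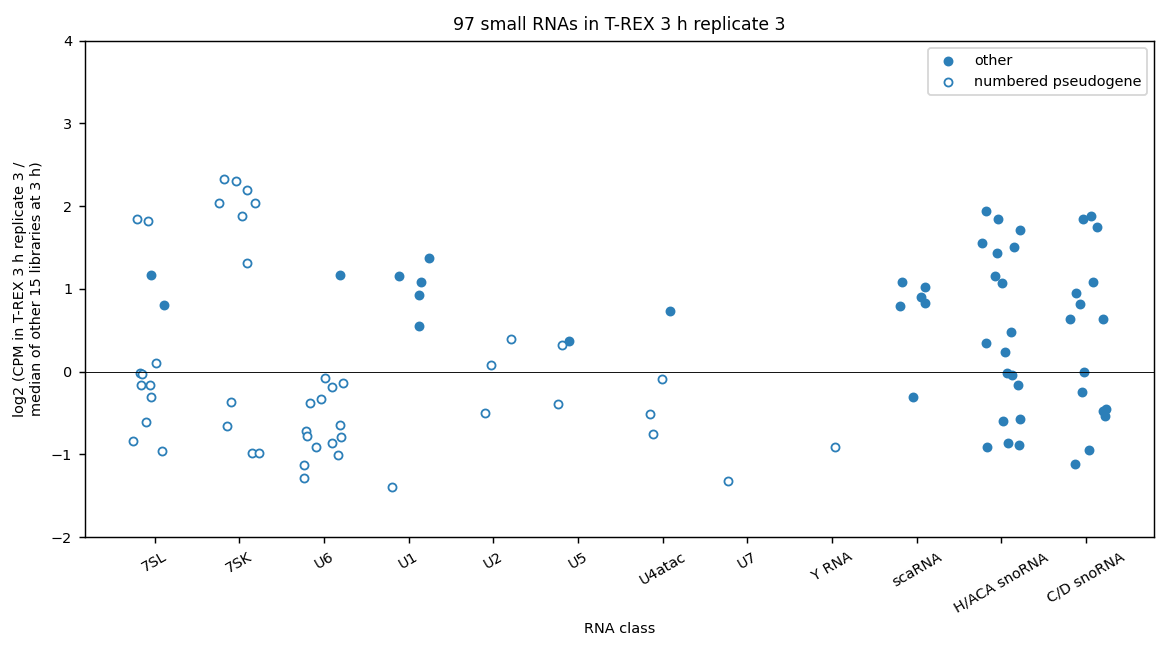
Log2 ratio of the CPM in T-REX 3 h replicate 3 to the median CPM of the other 15 libraries at 3 h (y axis) for the 97 RNAs by class (x axis). Filled points are RNAs not named as numbered pseudogenes. The 7SK copies divide into 7 at 1.32 or more and 4 below 0, and the 14 open U6 points all lie below 0.

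Setting that library aside left smaller medians of the same sign at 3 h. The median log2 fold change of the family became 0.23 with light alone as the control, 0.09 with probe alone and 0.15 with DMSO, and 76, 60 and 68 of the 97 were positive. The 7SK copies dropped from medians of 1.05, 0.49 and 0.77 to 0.18, 0.00 and -0.01. The U6 copies moved the other way, from 0.11, 0.09 and 0.22 to 0.29, 0.30 and 0.41. The members called in this reduced fit were RN7SL558P (log2 fold change 0.80, adjusted p = 0.0178) and RN7SKP269 (0.65, adjusted p = 0.0379), both against probe alone only. A single RNA kept all 4 T-REX libraries above all 12 controls at 3 h, SNORA40B, with 1.94, 1.81, 2.11 and 1.87 CPM against at most 1.77 CPM. Across all genes 0.388% met this rule, and 0 members lay below all controls where 1.65% of all genes did.

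**Figure D3:**
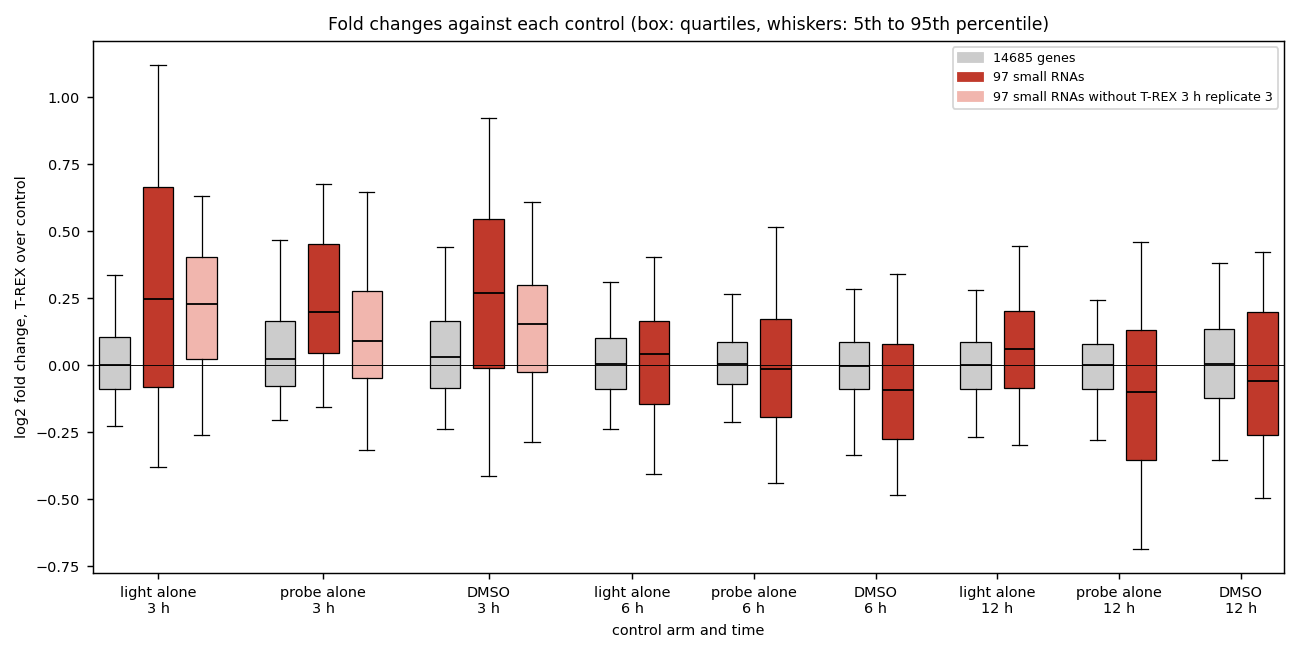
Log2 fold changes of T-REX over each control (y axis) at 3, 6 and 12 h for all 14685 genes (grey), the 97 small RNAs (red) and, at 3 h, the 97 RNAs with T-REX 3 h replicate 3 left out (pink). Boxes give quartiles with the median and whiskers the 5th and 95th percentiles. The red medians at 3 h are 0.25, 0.20 and 0.27, and the pink ones 0.23, 0.09 and 0.15.

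At 6 h no RNA of the family passed the test. No member was called against any control, the shares of all genes being 0.218% for light alone, 0.109% for probe alone and 0.415% for DMSO. At an unadjusted p of 0.05 the numbers were 4, 14 and 13 members, beside 11.7%, 6.56% and 12.4% of all genes, and DESeq2 called 0, 0 and 2, beside 1.29%, 0.427% and 1.96%. Medians were 0.04, -0.02 and -0.09. RN7SL1 measured 936, 869, 807 and 989.8 CPM after T-REX, 729, 937, 571 and 949.9 CPM with light alone, 937, 962, 759.5 and 984 CPM with probe alone and 916, 896, 1201 and 831 CPM with DMSO, all 4 arms overlapping. RN7SKP80 measured 270.3, 204, 252 and 235 CPM after T-REX, 301, 269, 465 and 251 CPM with light alone, 312, 336, 299 and 326 CPM with probe alone and 388, 328, 339 and 359.6 CPM with DMSO. Every T-REX library was below every DMSO library and every probe alone library for RN7SKP80, while light alone overlapped with T-REX. RN7SKP80 was named after its values were seen, and it was not called. How many of all genes lay below both of these controls was not counted. Below all 12 control libraries lay 0 members, beside 0.422% of all genes.

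At 12 h 3 members were called as lower after T-REX, each against 1 control. SCARNA21 was lower than with probe alone, where 0.701% of all genes were called, and SNORA22C and SNORD3C were lower than with DMSO, where 10.9% were. None was called against light alone, where 1.29% of all genes were, with 4 members at an unadjusted p of 0.05 (12.9% of all genes) and 0 with DESeq2 (2.67%). None was called against 2 or more controls, except that with the factors of unwanted variation RN7SKP80, RN7SKP203, SNORA22C and SNORA73B were lower against both probe alone and DMSO. The family medians were 0.06, -0.10 and -0.06 for light alone, probe alone and DMSO as control.

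SCARNA21 is a scaRNA of the H/ACA kind from an intron of CHD3 on chromosome 17. Its sequence is shown because no 50-base window of it occurs in another annotated transcript, though an unspliced CHD3 transcript would carry the same bases. Capitals mark its 1 match on the RNA strand to the H box letters ANANNA (bases 58 to 63) and the last ACA, 3 bases from the 3′ end.
SCARNA21: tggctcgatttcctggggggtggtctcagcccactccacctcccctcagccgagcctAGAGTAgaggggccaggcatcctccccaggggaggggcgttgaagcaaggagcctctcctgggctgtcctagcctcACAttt
At 12 h it measured 5.91, 4.21, 3.83 and 4.51 CPM after T-REX and 7.74, 7.73, 7.58 and 7.12 CPM with probe alone. Light alone gave 4.37, 3.85, 3.65 and 4.39 CPM, and DMSO 6.12, 4.92, 4.69 and 3.65 CPM. The probe alone libraries stood above all 12 others. The log2 fold change of T-REX over probe alone was -0.71 ± 0.15 (adjusted p = 0.0245). Light alone was also lower than probe alone, by -0.90 ± 0.16 (adjusted p = 0.00561), and probe alone was higher than DMSO by 0.64 ± 0.16 (adjusted p = 0.0187), so that what stood apart was the probe alone arm. Leaving out single libraries kept the T-REX difference between -0.85 and -0.63, and the call was lost in 6 of 16 such fits, those without T-REX replicate 2, 3 or 4 or probe alone replicate 1, 2 or 3 (adjusted p up to 0.111). At 3 h SCARNA21 gave 6.38, 5.84, 10.01 and 5.36 CPM after T-REX, 5.15, 3.28, 3.69 and 5.35 CPM with light alone, 8.54, 4.98, 7.02 and 6.71 CPM with probe alone and 5.50, 4.57, 3.86 and 4.86 CPM with DMSO. At 6 h it gave 5.77, 5.74, 4.50 and 5.22 CPM, 4.56, 5.46, 3.87 and 5.10 CPM, 5.04, 5.86, 5.37 and 5.17 CPM, and 5.36, 5.96, 7.12 and 5.28 CPM in the same order. At 3 h T-REX overlapped with probe alone and DMSO and lay just above light alone, and at 6 h it overlapped with each control.

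SNORA22C and SNORA22 are H/ACA snoRNAs from introns of the CCT6P3 and CCT6P1 pseudogenes on chromosome 7. They differ at 2 of 134 bases, marked by capitals, and are shown because 43.5% of their 50-base windows are shared.
SNORA22C: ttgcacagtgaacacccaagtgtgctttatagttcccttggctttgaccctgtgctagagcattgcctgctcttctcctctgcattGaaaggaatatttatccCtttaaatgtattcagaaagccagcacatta
SNORA22: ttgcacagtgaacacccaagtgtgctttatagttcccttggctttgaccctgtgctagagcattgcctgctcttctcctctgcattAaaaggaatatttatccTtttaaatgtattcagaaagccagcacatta
At 12 h SNORA22C measured 3.56, 2.58, 3.51 and 3.02 CPM after T-REX and 5.28, 5.77, 6.46 and 3.27 CPM with DMSO, 3 of the 4 DMSO libraries lying above all of T-REX. Light alone gave 2.95, 4.16, 2.53 and 3.68 CPM and probe alone 7.57, 4.70, 4.64 and 3.95 CPM. The log2 fold change over DMSO was -0.71 ± 0.22 (adjusted p = 0.0362), over probe alone -0.72 ± 0.22 (adjusted p = 0.147), and light alone was lower than DMSO by -0.64 ± 0.22 (adjusted p = 0.386). Earlier values were 4.41, 3.08, 11.7 and 2.34 CPM after T-REX, 3.35, 2.63, 1.96 and 3.07 CPM with light alone, 4.24, 2.74, 4.15 and 3.02 CPM with probe alone and 3.57, 2.85, 2.57 and 3.43 CPM with DMSO at 3 h. At 6 h they were 4.20, 2.68, 3.29 and 2.06 CPM, 3.86, 3.02, 3.59 and 3.22 CPM, 4.52, 4.54, 4.09 and 4.11 CPM, and 4.95, 4.05, 3.77 and 5.45 CPM in the same order. Apart from T-REX 3 h replicate 3 the arms overlapped at 3 h, and at 6 h the T-REX range overlapped with that of each control.

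SNORD3C is a gene for U3 on chromosome 17, and 90.6% of its 50-base windows recur in other annotated genes, so its counts are not separable from those of SNORD3A and its other copies. At 12 h it measured 2.56, 1.90, 3.00 and 2.58 CPM after T-REX, 2.11, 2.92, 2.31 and 3.28 CPM with light alone, 5.88, 4.87, 3.11 and 1.76 CPM with probe alone and 6.12, 4.78, 4.99 and 2.83 CPM with DMSO. DMSO replicate 4 overlapped with T-REX, and the probe alone libraries spanned both. The log2 fold change over DMSO was -0.90 ± 0.28 (adjusted p = 0.0419). It was 3.49, 3.63, 11.1 and 1.55 CPM after T-REX, 2.77, 3.11, 1.66 and 2.24 CPM with light alone, 3.14, 2.74, 3.67 and 3.02 CPM with probe alone and 2.96, 3.40, 3.52 and 2.67 CPM with DMSO at 3 h. At 6 h the values were 3.37, 2.22, 4.21 and 2.61 CPM, 3.03, 2.99, 3.52 and 2.11 CPM, 3.52, 3.37, 2.95 and 3.05 CPM, and 3.37, 3.01, 3.84 and 3.29 CPM in the same order, with no arm apart. Leaving out single libraries ended the call of SNORA22C in 7 of 16 fits, those without any T-REX replicate or without DMSO replicate 1, 2 or 3 (log2 fold change -0.88 to -0.58). It ended that of SNORD3C in 9, those without any T-REX replicate, light alone replicate 2 or 3, or DMSO replicate 1, 2 or 3 (-1.08 to -0.74).

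Members were also called between controls. At 12 h 4 members were higher with probe alone than with DMSO, where 5.11% of all genes were called. They were RN7SL1 by 0.58 ± 0.15 (adjusted p = 0.0415), SCARNA5 by 0.49 ± 0.12 (adjusted p = 0.0284), SCARNA21 as above and the U5 pseudogene RNU5E-4P by 0.76 ± 0.23 (adjusted p = 0.0492). Light alone was lower than probe alone for SCARNA21 and for SNORD17, a C/D snoRNA from an intron of SNX5, by -0.41 ± 0.09 (adjusted p = 0.0389), with 0.415% of all genes called. At that time RN7SL1 measured 1347, 1242, 1364 and 1000.4 CPM with probe alone, 1039, 793, 616 and 883 CPM with DMSO, 755, 863, 776 and 1026 CPM with light alone and 1044, 863, 1033 and 943 CPM after T-REX. RN7SKP80 measured 218, 232, 257 and 238 CPM after T-REX, 299, 348, 226 and 313 CPM with light alone, 474, 338, 320.2 and 290.1 CPM with probe alone and 427, 382, 605 and 219 CPM with DMSO. Probe alone held the highest mean of the 4 arms for RN7SL1 and DMSO for RN7SKP80. Between controls at 3 h 0 members were called, beside 0.00681% of all genes for light alone against DMSO, 0.00681% for probe alone against DMSO and 0.232% for light alone against probe alone. At 6 h there were also 0, beside 0.00681%, 0.0272% and 0.0613% in the same order, and at 12 h 0 for light alone against DMSO, beside 0.0136%. The members with an unadjusted p of at most 0.05 numbered 0 to 12 in these comparisons, beside 5.11% to 14.4% of all genes. DESeq2 called 0 members in each.

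**Figure D4:**
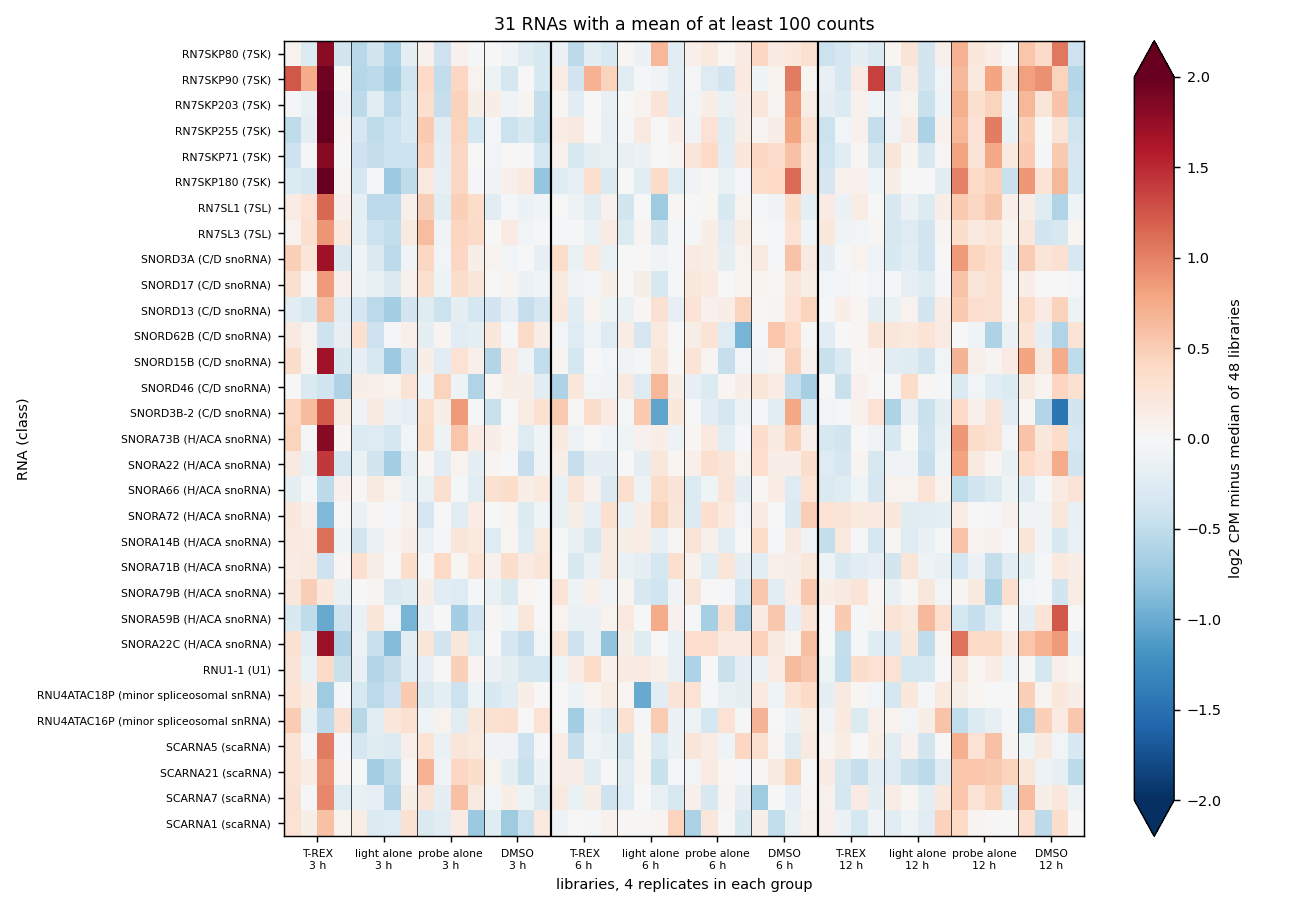
Log2 CPM of the 31 RNAs with a mean of at least 100 counts, each less its median over the 48 libraries (colour, clipped at 2 on either side), by library (x axis, 4 replicates in each group) and RNA (y axis, by class). The darkest column is T-REX 3 h replicate 3, in which 21 of the 31 have their highest value of all 48 libraries and 3 their lowest.

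The 31 better counted RNAs ranged from a 1.84-fold to an 8.17-fold spread between the lowest and highest of the 48 libraries. For 21 of the 31 the highest library was T-REX 3 h replicate 3. How the spread divides within and between groups was not computed. The 23 of the 31 that are not numbered pseudogenes are given library by library, RN7SL1, SCARNA21 and SNORA22C above and the other 20 here. For none of the 20 did all 4 T-REX libraries lie above or below all 12 control libraries at any time.

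RN7SL3, the near twin of RN7SL1, measured 52.7, 62.6, 92.1 and 57.2 CPM after T-REX at 3 h, 43.5, 37.3, 35.6 and 56.9 CPM with light alone, 76.8, 47.8, 67.5 and 65.5 CPM with probe alone and 49.8, 56.05, 48.3 and 48.6 CPM with DMSO. RN7SL3 at 6 h gave 49.02, 49.1, 45.4 and 56.1 CPM after T-REX, 41.4, 52.1, 38.9 and 49.4 CPM with light alone, 49.2, 54.7, 43.2 and 55.2 CPM with probe alone and 50.1, 48.6, 61.4 and 47.3 CPM with DMSO. RN7SL3 at 12 h gave 57.8, 46.9, 48.1 and 50.6 CPM after T-REX, 40.1, 41.9, 38.9 and 52.1 CPM with light alone, 63.9, 57.5, 58.97 and 51.9 CPM with probe alone and 58.8, 38.5, 39.8 and 51.2 CPM with DMSO. Its highest group mean, 66.1 CPM, was that of T-REX 3 h, its lowest, 43.3 CPM, that of light alone 12 h, and its highest single value came from T-REX 3 h replicate 3. RNU1-1, a gene for U1, the RNA that recognises the start of introns, measured 4.48, 3.41, 4.90 and 2.74 CPM after T-REX at 3 h, 3.39, 2.49, 2.69 and 3.18 CPM with light alone, 3.35, 3.71, 5.20 and 3.91 CPM with probe alone and 3.46, 3.26, 2.94 and 2.95 CPM with DMSO. RNU1-1 at 6 h gave 3.54, 4.16, 4.84 and 3.99 CPM after T-REX, 4.18, 4.19, 4.01 and 3.38 CPM with light alone, 2.45, 3.78, 2.74 and 3.29 CPM with probe alone and 3.45, 4.14, 5.80 and 5.41 CPM with DMSO. RNU1-1 at 12 h gave 3.51, 2.65, 4.79 and 4.56 CPM after T-REX, 4.57, 2.92, 3.02 and 3.78 CPM with light alone, 4.42, 3.85, 4.11 and 3.53 CPM with probe alone and 3.80, 2.94, 4.01 and 3.84 CPM with DMSO. Group means ran from 2.94 CPM in light alone 3 h to 4.70 CPM in DMSO 6 h, and DMSO 6 h replicate 3 was the highest library.

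SNORD3A, a gene for U3, measured 61.8, 52.9, 145 and 36.4 CPM after T-REX at 3 h, 42.2, 36.6, 30.9 and 42.6 CPM with light alone, 59.2, 42.8, 59.5 and 48.4 CPM with probe alone and 46.99, 42.96, 44.3 and 39.8 CPM with DMSO. SNORD3A at 6 h gave 57.4, 40.6, 50.9 and 40.8 CPM after T-REX, 44.7, 44.95, 42.4 and 43.6 CPM with light alone, 49.9, 48.9, 39.2 and 47.03 CPM with probe alone and 50.7, 44.1, 66.2 and 50.7 CPM with DMSO. SNORD3A at 12 h gave 39.4, 43.97, 46.8 and 42.4 CPM after T-REX, 36.1, 38.01, 33.8 and 44.5 CPM with light alone, 80.6, 60.4, 56.03 and 41.2 CPM with probe alone and 63.3, 52.7, 54.95 and 35.6 CPM with DMSO. The highest of its 48 values was that of T-REX 3 h replicate 3, and its group means lay between 38.1 CPM (light alone 3 h) and 73.9 CPM (T-REX 3 h). SNORD3B-2, another U3 gene, measured 4.86, 5.62, 8.49 and 4.01 CPM after T-REX at 3 h, 3.46, 4.11, 3.36 and 3.25 CPM with light alone, 4.60, 3.94, 6.54 and 3.54 CPM with probe alone and 2.68, 3.61, 4.03 and 4.51 CPM with DMSO. SNORD3B-2 at 6 h gave 5.24, 3.70, 4.64 and 4.09 CPM after T-REX, 3.59, 5.22, 1.74 and 4.23 CPM with light alone, 3.66, 3.12, 2.88 and 3.39 CPM with probe alone and 3.56, 3.14, 6.19 and 3.02 CPM with DMSO. SNORD3B-2 at 12 h gave 3.51, 3.53, 3.86 and 4.43 CPM after T-REX, 2.36, 3.26, 2.68 and 3.18 CPM with light alone, 4.72, 3.91, 4.34 and 3.14 CPM with probe alone and 3.73, 2.43, 1.32 and 2.79 CPM with DMSO. T-REX 3 h replicate 3 gave the highest single value, and the means of the groups spanned 2.57 CPM (DMSO 12 h) to 5.75 CPM (T-REX 3 h). SNORD13, the U13 snoRNA, transcribed from its own promoter, measured 8.47, 7.98, 15.2 and 8.49 CPM after T-REX at 3 h, 7.88, 6.87, 6.22 and 7.63 CPM with light alone, 8.42, 7.42, 8.68 and 7.81 CPM with probe alone and 7.64, 8.89, 7.24 and 7.88 CPM with DMSO. SNORD13 at 6 h gave 11.47, 8.56, 10.5 and 9.31 CPM after T-REX, 9.12, 10.2, 12.3 and 8.87 CPM with light alone, 12.02, 10.6, 10.95 and 13.5 CPM with probe alone and 10.3, 10.3, 12.2 and 13.5 CPM with DMSO. SNORD13 at 12 h gave 9.79, 10.9, 10.3 and 8.80 CPM after T-REX, 9.10, 10.5, 7.64 and 10.99 CPM with light alone, 14.4, 12.5, 12.3 and 10.1 CPM with probe alone and 12.9, 11.1, 13.8 and 9.27 CPM with DMSO. Its highest group mean, 12.3 CPM, was that of probe alone 12 h, its lowest, 7.15 CPM, that of light alone 3 h, and its highest single value came from T-REX 3 h replicate 3.

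SNORD17, a box C/D snoRNA from an intron of SNX5, measured 39.5, 32.5, 57.2 and 34.1 CPM after T-REX at 3 h, 29.6, 28.4, 26.03 and 33.5 CPM with light alone, 39.7, 29.4, 40.5 and 37.5 CPM with probe alone and 31.4, 32.8, 29.2 and 29.9 CPM with DMSO. SNORD17 at 6 h gave 35.8, 30.3, 30.6 and 34.5 CPM after T-REX, 31.4, 34.3, 25.4 and 31.04 CPM with light alone, 36.96, 35.5, 31.4 and 33.4 CPM with probe alone and 33.4, 32.5, 37.3 and 34.2 CPM with DMSO. SNORD17 at 12 h gave 30.5, 30.5, 31.9 and 30.6 CPM after T-REX, 30.9, 28.3, 26.7 and 31.1 CPM with light alone, 46.99, 37.4, 39.3 and 31.02 CPM with probe alone and 34.7, 31.4, 31.5 and 30.9 CPM with DMSO. Group means ran from 29.2 CPM in light alone 12 h to 40.8 CPM in T-REX 3 h, and T-REX 3 h replicate 3 was the highest library. SNORD15B, a box C/D snoRNA from an intron of RPS3, measured 5.20, 4.21, 13.04 and 3.29 CPM after T-REX at 3 h, 3.63, 3.25, 2.46 and 3.22 CPM with light alone, 4.42, 3.51, 4.98 and 4.35 CPM with probe alone and 2.71, 4.53, 3.89 and 2.88 CPM with DMSO. SNORD15B at 6 h gave 4.24, 3.17, 4.07 and 3.92 CPM after T-REX, 3.86, 3.98, 4.81 and 4.06 CPM with light alone, 4.90, 4.22, 2.95 and 3.90 CPM with probe alone and 3.86, 4.23, 5.59 and 4.32 CPM with DMSO. SNORD15B at 12 h gave 2.98, 3.33, 4.18 and 4.21 CPM after T-REX, 3.47, 3.42, 3.14 and 3.93 CPM with light alone, 6.54, 4.37, 4.24 and 4.55 CPM with probe alone and 7.02, 4.61, 6.80 and 2.86 CPM with DMSO. The highest of its 48 values was that of T-REX 3 h replicate 3, and its group means lay between 3.14 CPM (light alone 3 h) and 6.44 CPM (T-REX 3 h). SNORD46, a box C/D snoRNA, measured 4.18, 3.44, 3.17 and 2.74 CPM after T-REX at 3 h, 4.56, 4.53, 4.42 and 5.09 CPM with light alone, 3.94, 5.75, 3.89 and 2.76 CPM with probe alone and 4.32, 4.53, 4.57 and 3.57 CPM with DMSO. SNORD46 at 6 h gave 2.73, 4.90, 4.04 and 4.02 CPM after T-REX, 4.77, 3.50, 6.66 and 4.62 CPM with light alone, 3.76, 3.47, 4.30 and 4.59 CPM with probe alone and 4.98, 4.67, 3.06 and 2.66 CPM with DMSO. SNORD46 at 12 h gave 4.22, 3.09, 4.44 and 4.16 CPM after T-REX, 4.15, 5.44, 4.26 and 4.07 CPM with light alone, 3.45, 4.05, 3.64 and 3.49 CPM with probe alone and 4.77, 4.34, 5.67 and 5.17 CPM with DMSO. light alone 6 h replicate 3 gave the highest single value, and the means of the groups spanned 3.38 CPM (T-REX 3 h) to 4.99 CPM (DMSO 12 h).

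SNORD62B, a box C/D snoRNA from an intron of PRRC2B, measured 4.94, 4.57, 3.28 and 3.89 CPM after T-REX at 3 h, 5.43, 3.28, 4.29 and 4.67 CPM with light alone, 3.86, 4.55, 3.70 and 3.83 CPM with probe alone and 5.03, 4.22, 5.69 and 4.75 CPM with DMSO. SNORD62B at 6 h gave 4.17, 3.63, 4.09 and 3.64 CPM after T-REX, 4.80, 3.43, 4.98 and 4.36 CPM with light alone, 4.70, 5.26, 3.63 and 2.29 CPM with probe alone and 4.27, 6.398, 5.77 and 4.42 CPM with DMSO. SNORD62B at 12 h gave 3.72, 4.32, 4.47 and 5.16 CPM after T-REX, 5.08, 4.97, 5.24 and 4.85 CPM with light alone, 4.35, 4.14, 2.84 and 3.98 CPM with probe alone and 5.28, 3.79, 2.87 and 5.24 CPM with DMSO. Its highest group mean, 5.21 CPM, was that of DMSO 6 h, its lowest, 3.83 CPM, that of probe alone 12 h, and its highest single value came from DMSO 6 h replicate 2.

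SNORA73B, an H/ACA snoRNA of ribosomal RNA processing from an intron of RCC1, measured 18.1, 13.1, 46.9 and 13.7 CPM after T-REX at 3 h, 10.9, 11.1, 10.4 and 12.7 CPM with light alone, 16.99, 12.3, 19.5 and 14.9 CPM with probe alone and 14.6, 13.6, 11.03 and 12.6 CPM with DMSO. SNORA73B at 6 h gave 15.01, 12.3, 13.1 and 12.6 CPM after T-REX, 12.4, 14.1, 14.4 and 12.4 CPM with light alone, 13.6, 15.1, 11.3 and 12.8 CPM with probe alone and 16.9, 14.96, 18.3 and 14.1 CPM with DMSO. SNORA73B at 12 h gave 10.6, 10.2, 13.3 and 12.6 CPM after T-REX, 10.7, 13.2, 9.81 and 12.1 CPM with light alone, 24.1, 17.04, 16.2 and 12.7 CPM with probe alone and 19.6, 15.3, 17.01 and 10.6 CPM with DMSO. Group means ran from 11.3 CPM in light alone 3 h to 22.9 CPM in T-REX 3 h, and T-REX 3 h replicate 3 was the highest library. SNORA22, a box H/ACA snoRNA from an intron of CCT6P1, measured 12.1, 9.65, 28.4 and 8.45 CPM after T-REX at 3 h, 9.78, 8.29, 6.65 and 9.27 CPM with light alone, 11.003, 9.16, 11.2 and 9.33 CPM with probe alone and 11.1, 10.7, 7.78 and 10.2 CPM with DMSO. SNORA22 at 6 h gave 11.6, 7.75, 9.31 and 9.45 CPM after T-REX, 10.7, 9.41, 12.5 and 10.99 CPM with light alone, 11.50, 13.4, 12.7 and 11.2 CPM with probe alone and 13.5, 11.7, 11.7 and 13.6 CPM with DMSO. SNORA22 at 12 h gave 8.94, 8.43, 11.1 and 8.58 CPM after T-REX, 10.1, 10.2, 7.77 and 10.1 CPM with light alone, 18.6, 12.1, 11.1 and 9.59 CPM with probe alone and 13.9, 12.9, 17.95 and 8.32 CPM with DMSO. The highest of its 48 values was that of T-REX 3 h replicate 3, and its group means lay between 8.50 CPM (light alone 3 h) and 14.6 CPM (T-REX 3 h). SNORA66, a box H/ACA snoRNA from an intron of RPL5, measured 7.67, 8.63, 6.06 and 9.25 CPM after T-REX at 3 h, 8.85, 9.95, 9.17 and 7.93 CPM with light alone, 8.01, 10.9, 8.55 and 7.56 CPM with probe alone and 10.8, 11.1, 9.54 and 9.99 CPM with DMSO. SNORA66 at 6 h gave 7.90, 10.3, 9.31 and 7.18 CPM after T-REX, 10.9, 8.17, 11.3 and 10.4 CPM with light alone, 7.22, 8.25, 10.5 and 7.67 CPM with probe alone and 8.92, 9.66, 7.30 and 10.5 CPM with DMSO. SNORA66 at 12 h gave 7.15, 7.37, 8.26 and 6.93 CPM after T-REX, 9.20, 9.17, 10.5 and 9.14 CPM with light alone, 6.14, 6.74, 7.25 and 8.11 CPM with probe alone and 7.36, 8.47, 9.79 and 10.4 CPM with DMSO. light alone 6 h replicate 3 gave the highest single value, and the means of the groups spanned 7.06 CPM (probe alone 12 h) to 10.4 CPM (DMSO 3 h).

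SNORA72, a box H/ACA snoRNA from an intron of NUCKS1, measured 9.19, 8.45, 4.30 and 7.82 CPM after T-REX at 3 h, 7.19, 8.01, 7.78 and 8.41 CPM with light alone, 6.23, 7.85, 6.73 and 8.74 CPM with probe alone and 7.82, 8.17, 6.53 and 7.46 CPM with DMSO. SNORA72 at 6 h gave 7.10, 8.59, 7.06 and 9.89 CPM after T-REX, 7.24, 8.69, 10.7 and 9.30 CPM with light alone, 6.56, 9.99, 9.03 and 7.63 CPM with probe alone and 8.84, 7.90, 6.48 and 11.2 CPM with DMSO. SNORA72 at 12 h gave 9.60, 9.48, 9.05 and 8.96 CPM after T-REX, 9.10, 6.65, 6.76 and 6.995 CPM with light alone, 8.73, 7.89, 7.68 and 8.35 CPM with probe alone and 7.53, 7.55, 9.26 and 7.11 CPM with DMSO. Its highest group mean, 9.27 CPM, was that of T-REX 12 h, its lowest, 7.38 CPM, that of light alone 12 h, and its highest single value came from DMSO 6 h replicate 4. SNORA14B, a box H/ACA snoRNA from an intron of TOMM20, measured 7.56, 7.43, 14.2 and 6.23 CPM after T-REX at 3 h, 5.15, 6.08, 6.88 and 7.26 CPM with light alone, 6.02, 6.52, 7.82 and 7.56 CPM with probe alone and 5.53, 6.77, 5.58 and 7.60 CPM with DMSO. SNORA14B at 6 h gave 6.44, 5.95, 5.36 and 7.49 CPM after T-REX, 7.21, 7.35, 5.93 and 6.73 CPM with light alone, 7.88, 7.09, 5.69 and 6.61 CPM with probe alone and 8.51, 6.46, 7.47 and 6.31 CPM with DMSO. SNORA14B at 12 h gave 4.77, 7.54, 6.44 and 5.27 CPM after T-REX, 6.80, 5.53, 5.97 and 6.496 CPM with light alone, 9.86, 6.97, 7.05 and 6.63 CPM with probe alone and 7.83, 6.32, 5.33 and 6.03 CPM with DMSO. Group means ran from 6.01 CPM in T-REX 12 h to 8.86 CPM in T-REX 3 h, and T-REX 3 h replicate 3 was the highest library. SNORA71B, a box H/ACA snoRNA from an intron of SNHG17, measured 7.22, 7.43, 4.93 and 6.71 CPM after T-REX at 3 h, 8.16, 7.08, 6.48 and 8.30 CPM with light alone, 6.38, 8.66, 6.64 and 7.93 CPM with probe alone and 6.96, 8.38, 7.34 and 7.70 CPM with DMSO. SNORA71B at 6 h gave 6.60, 5.21, 5.94 and 7.39 CPM after T-REX, 5.95, 5.73, 5.12 and 8.16 CPM with light alone, 6.98, 5.61, 7.72 and 5.75 CPM with probe alone and 5.66, 7.03, 7.12 and 7.64 CPM with DMSO. SNORA71B at 12 h gave 6.09, 5.30, 5.62 and 5.81 CPM after T-REX, 5.05, 7.71, 6.09 and 5.89 CPM with light alone, 5.15, 6.05, 4.71 and 5.61 CPM with probe alone and 5.75, 6.39, 7.52 and 7.21 CPM with DMSO. The highest of its 48 values was that of probe alone 3 h replicate 2, and its group means lay between 5.38 CPM (probe alone 12 h) and 7.60 CPM (DMSO 3 h).

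SNORA59B, a box H/ACA snoRNA from an intron of SLC47A1, measured 3.11, 2.72, 1.90 and 2.90 CPM after T-REX at 3 h, 3.49, 4.56, 3.69 and 2.02 CPM with light alone, 3.53, 3.88, 2.39 and 2.91 CPM with probe alone and 3.89, 3.64, 4.50 and 3.85 CPM with DMSO. SNORA59B at 6 h gave 4.04, 3.52, 3.55 and 4.02 CPM after T-REX, 4.39, 3.88, 6.41 and 4.06 CPM with light alone, 3.76, 2.43, 4.80 and 2.46 CPM with probe alone and 4.31, 5.58, 3.42 and 4.58 CPM with DMSO. SNORA59B at 12 h gave 3.85, 5.50, 3.79 and 3.99 CPM after T-REX, 4.63, 4.38, 6.000 and 4.85 CPM with light alone, 3.02, 2.80, 3.31 and 3.84 CPM with probe alone and 3.39, 4.65, 9.11 and 3.84 CPM with DMSO. DMSO 12 h replicate 3 gave the highest single value, and the means of the groups spanned 2.66 CPM (T-REX 3 h) to 5.25 CPM (DMSO 12 h). SNORA79B, a box H/ACA snoRNA from an intron of CCNB1IP1, measured 4.56, 5.48, 4.51 and 3.53 CPM after T-REX at 3 h, 3.91, 4.08, 3.19 and 3.29 CPM with light alone, 4.27, 3.34, 3.26 and 3.83 CPM with probe alone and 3.57, 3.19, 4.03 and 3.92 CPM with DMSO. SNORA79B at 6 h gave 4.67, 3.66, 4.18 and 3.74 CPM after T-REX, 4.07, 3.16, 2.96 and 3.74 CPM with light alone, 4.63, 3.91, 3.81 and 3.08 CPM with probe alone and 5.70, 3.39, 4.27 and 5.71 CPM with DMSO. SNORA79B at 12 h gave 4.30, 4.42, 4.69 and 3.97 CPM after T-REX, 3.53, 3.98, 4.60 and 3.78 CPM with light alone, 4.08, 4.44, 2.54 and 4.90 CPM with probe alone and 3.76, 3.86, 3.02 and 4.32 CPM with DMSO. Its highest group mean, 4.77 CPM, was that of DMSO 6 h, its lowest, 3.48 CPM, that of light alone 6 h, and its highest single value came from DMSO 6 h replicate 4.

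SCARNA5, a scaRNA from an intron of ATG16L1, measured 54.2, 43.7, 92.3 and 43.9 CPM after T-REX at 3 h, 35.4, 37.9, 37.1 and 48.4 CPM with light alone, 54.4, 41.04, 53.1 and 51.6 CPM with probe alone and 42.6, 42.9, 33.7 and 43.8 CPM with DMSO. SCARNA5 at 6 h gave 49.5, 32.8, 42.1 and 40.7 CPM after T-REX, 35.8, 46.2, 36.7 and 41.3 CPM with light alone, 52.9, 49.96, 42.4 and 59.998 CPM with probe alone and 56.1, 45.4, 38.1 and 50.7 CPM with DMSO. SCARNA5 at 12 h gave 46.8, 49.7, 44.9 and 49.03 CPM after T-REX, 38.6, 47.5, 34.8 and 44.9 CPM with light alone, 73.5, 54.96, 67.2 and 46.6 CPM with probe alone and 42.03, 50.7, 43.2 and 36.4 CPM with DMSO. Group means ran from 39.7 CPM in light alone 3 h to 60.6 CPM in probe alone 12 h, and T-REX 3 h replicate 3 was the highest library. SCARNA7, a scaRNA from an intron of KPNA4, measured 6.42, 5.11, 10.2 and 4.41 CPM after T-REX at 3 h, 4.74, 4.63, 3.46 and 5.61 CPM with light alone, 6.20, 4.58, 7.79 and 5.90 CPM with probe alone and 4.999, 5.67, 4.84 and 4.27 CPM with DMSO. SCARNA7 at 6 h gave 5.87, 4.72, 5.62 and 3.92 CPM after T-REX, 4.35, 5.15, 4.67 and 4.16 CPM with light alone, 5.595, 4.16, 5.37 and 4.59 CPM with probe alone and 3.19, 5.24, 4.63 and 5.31 CPM with DMSO. SCARNA7 at 12 h gave 5.49, 4.08, 5.79 and 4.56 CPM after T-REX, 5.76, 5.31, 4.54 and 6.03 CPM with light alone, 7.64, 6.25, 7.05 and 4.48 CPM with probe alone and 8.03, 5.64, 6.05 and 4.82 CPM with DMSO. The highest of its 48 values was that of T-REX 3 h replicate 3, and its group means lay between 4.58 CPM (light alone 6 h) and 6.52 CPM (T-REX 3 h). SCARNA1, a scaRNA from an intron of PPP1R8, measured 4.29, 3.81, 5.29 and 3.69 CPM after T-REX at 3 h, 3.91, 2.90, 2.96 and 4.38 CPM with light alone, 2.88, 3.04, 3.96 and 2.10 CPM with probe alone and 2.96, 2.16, 2.61 and 4.02 CPM with DMSO. SCARNA1 at 6 h gave 3.27, 3.49, 3.46 and 3.74 CPM after T-REX, 3.59, 3.57, 3.66 and 4.78 CPM with light alone, 2.28, 4.13, 3.52 and 2.84 CPM with probe alone and 3.82, 2.51, 3.203 and 3.75 CPM with DMSO. SCARNA1 at 12 h gave 3.80, 3.26, 2.75 and 3.37 CPM after T-REX, 3.01, 3.33, 3.02 and 4.85 CPM with light alone, 4.65, 3.65, 3.57 and 3.53 CPM with probe alone and 4.402, 2.46, 4.50 and 3.52 CPM with DMSO. T-REX 3 h replicate 3 gave the highest single value, and the means of the groups spanned 2.94 CPM (DMSO 3 h) to 4.27 CPM (T-REX 3 h).

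For RN7SL3, SNORD3A, SNORD3B-2, SNORD17, SNORD15B, SNORA73B, SNORA22, SNORA14B, SCARNA7 and SCARNA1, the highest group mean was that of T-REX at 3 h, the group that holds replicate 3. The 8 better counted pseudogenes were 6 copies of 7SK and 2 of U4atac. Over the 48 libraries RN7SKP203 ranged from 10.2 to 64.7 CPM, RN7SKP255 from 2.89 to 17.9 CPM, RN7SKP71 from 2.69 to 13.3 CPM and RN7SKP180 from 1.73 to 14.2 CPM, each highest in T-REX 3 h replicate 3. RNU4ATAC18P ranged from 2.37 to 6.88 CPM and RNU4ATAC16P from 2.01 to 5.21 CPM, with their highest values in control libraries. The 66 RNAs under 100 counts had means from 1.29 to 3.35 CPM.

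Within groups, some members rose and fell together from library to library. The deviations of log2 CPM from the group mean correlated between RN7SL1 and RN7SL3 with r = 0.92 over 48 libraries, and with r = 0.90 without T-REX 3 h replicate 3. The 6 7SK copies with at least 100 counts gave a median r of 0.80 over their 15 pairs, and 0.59 without that library. Pairs of H/ACA and of C/D snoRNAs went both ways, with medians of -0.06 (from -0.61 to 0.91) and 0.06 (from -0.34 to 0.85). The 5 genes outside the family most like RN7SL1 by this measure were H4C8, RPL37, RPS19, ACLY and TMSB10, with r from 0.87 to 0.91. These are descriptions over libraries that share a group mean and a depth. The members within host genes followed their hosts weakly, with a median r of 0.11 over 35 snoRNAs and scaRNAs. Of the 66 host genes in the tables, 9 were called for T-REX against DMSO at 3 h, beside 5.99% of all genes. At 12 h 11 of the 66 were called, beside 10.9%. In no comparison with T-REX were a member and its host both called. Of the members called there, only SCARNA21 and SNORA22C have a host among these, so such a pair could hardly occur.

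Over time, more members were called in the T-REX arm than in the other arms, most of them lower, and most of these calls were lost without T-REX 3 h replicate 3. Between 3 h and 12 h 33 members were called in the T-REX arm, 28 lower and 5 higher, where 41.7% of all genes were called. Between 3 h and 6 h 20 were called, 17 lower, where 23.3% of all genes were. In the other arms 4 to 6 members were called from 3 h to 12 h and 2 to 4 from 3 h to 6 h, beside 38.8% to 42.3% and 16% to 25.3% of all genes. The largest falls after T-REX at 12 h were those of RN7SL5P (-1.19), SNORD3C (-0.99) and SNORA73B (-0.98), and the 7SK copies had a median of -0.88. Without that library the calls numbered 10 and 2. The change of the T-REX effect between times, T-REX less the mean of the controls, was called for 0 members in each of the 3 pairs of times, where 0.0%, 0.116% and 0.0% of all genes were. The unadjusted numbers were 29 for 6 h against 3 h, 32 for 12 h against 3 h and 1 for 12 h against 6 h, beside 7.47%, 11.04% and 2.96% of all genes. DESeq2 called 7 members for 12 h against 3 h, beside 0.552% of all genes, and 0 for the others. The tables of the 3 times were deposited apart, and time and table cannot be told apart.

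SNORD13, the U13 snoRNA with its own promoter, rose over time in all 3 control arms. Its means were 7.15, 8.08 and 7.91 CPM at 3 h with light alone, probe alone and DMSO, and 10.1, 11.8 and 11.6 CPM at 6 h. From 3 h to 6 h it rose by 0.50, 0.54 and 0.55 on the log2 scale, and to 12 h by 0.42, 0.61 and 0.57, all called (adjusted p from 8.46e-04 to 0.0247). After T-REX its means were 10.03, 9.96 and 9.94 CPM, the first of these with replicate 3 at 15.2 CPM and the others between 7.98 and 8.49 CPM. The U2 pseudogene RNU2-63P rose from 3 h to 6 h in the T-REX, light alone and probe alone arms, by 0.57, 0.74 and 0.71. With DMSO, where it was not called, its mean also rose, from 2.07 to 2.92 CPM. RN7SL648P fell from 3 h to 12 h in T-REX, light alone and DMSO, by -0.60, -0.70 and -0.63. With probe alone its mean went from 3.30 to 2.81 CPM.

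The proteins that make, carry and hold these RNAs were looked up as 9 lists with 139 measured genes. Against light alone and probe alone, 0 were called at 3 h, and at 6 h only NCBP1 itself against light alone (0.80). Against DMSO at 3 h 6 were called, which is 4.32% of the 139 beside 5.99% of all genes. NCBP1 itself was higher (0.50), and 5 were lower. Among these 5 were TENT4B, a poly(A) polymerase of nuclear decay (-0.27), RO60, which binds Y RNAs (-0.28), and CCNT1, the cyclin of P-TEFb (-0.20). At 6 h none was called against probe alone or DMSO. At 12 h 16 were called against DMSO, 14 lower, which is 11.5% of the 139 beside 10.9% of all genes. NCBP1 itself was again higher (0.73). Of the 18 proteins of C/D and H/ACA particles, 5 were lower: SNU13 (-0.44), NHP2 (-0.48), GAR1 (-0.52), SHQ1 (-0.20) and DKC1 (-0.17). Of the 20 in the SMN complex and Sm ring, SNRPD3 was lower against all 3 controls (-0.26, -0.22 and -0.29), and SMN1 and SNRPD1 against DMSO. In the signal recognition particle, SRP19 was higher against light alone (0.37) and DMSO (0.44) while SRP9 and SRP14 were lower against DMSO (-0.25 and -0.24). POP5 and POP7 of RNase P and MRP (-0.44 and -0.39), GTF3A of polymerase III (-0.19) and RAN, the export GTPase (-0.28), were lower against DMSO. No gene of the Integrator list was called in any comparison with T-REX.

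The median standard error of a log2 fold change was 0.22 to 0.24 for the 97 RNAs in the comparisons with T-REX, against 0.10 for all genes, so a change of a given size was harder to detect among these RNAs than elsewhere.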

How the data were processed

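RNA-seq was made from 48 HEK293T libraries, 4 in each of 12 groups. Per the labels, total RNA was extracted with TRIzol and libraries followed a stranded mRNA kit, whereas the study's methods describe ribosomal RNA depletion in place of poly(A) selection. The authors deposited whole-number read counts per gene in 1 table for each time, log2 CPM, and scores of unwanted variation (RUV, 2 factors per library). Genome build, treatment of reads with several matches and strand setting of the counting are not given in the sources used here, and the deposited tables transformed by RUV were not used. Total counts were 23952455 to 37099535 per library. A value of a single library is 1 measurement, printed with no estimate of its error.

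The counts were tested with edgeR 4.0.16 (TMM factors, quasi-likelihood test, all 4 arms of a time in 1 fit, filterByExpr, which removed 0 genes) in R 4.3.3, with Benjamini-Hochberg adjustment over all genes and a threshold of 0.05. Times and the T-REX effect between times were tested in 1 fit over all libraries. CPM used TMM library sizes over all 48 libraries. Alternatives were DESeq2 1.42.0, limma 3.58.1 on the deposited log2 CPM, RLE factors, no filter, scaling without the small RNAs, the RUV scores as covariates, only the 2 arms compared, a replicate block, and each library left out. The test was checked on simulated data. The RNAs and lists were chosen with earlier results of these data known. Symbols were matched by gene ID: 93 of the 97 have such a symbol in GENCODE 29 and 4 only in current names. Library values are given for RNAs that are no numbered pseudogene with a mean of at least 100 counts, and for those called against a control, and of the gene lists mainly the 3 with the smallest adjusted p. RN7SKP80 and those with a class or time result were named after their values were seen. Replicates are numbered samples that the study describes as biologically independent. The same-numbered libraries were not treated as paired: their correlations ran from -0.64 to 0.58. Some further items that were looked up are not reported here.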

Additional observations from a re-analysis of the deposited data

Results flagged for a closer look

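In groups of 4 libraries, the highest or lowest was marked where its gap to the next exceeded Dixon's 95% critical value for 4 values. Of 84 groups examined 4 were marked, and chance alone marks about 1 in 20. RN7SL1 stood at 2076 CPM in T-REX 3 h replicate 3, with the other 3 libraries between 1000.1 and 1146 CPM. RN7SKP80 stood at 1016 CPM in the same library, with the others between 228 and 308 CPM. The summed level of the 97 RNAs was 4031 CPM there, with the others between 1696 and 1931 CPM. RN7SKP90 stood at 36.4 CPM in DMSO 6 h replicate 3, with the others between 16.7 and 18.5 CPM. What set these libraries apart was not tested.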

How the results depend on the processing

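Of the recomputed counts of calls, 892 stayed within 1.5 times the value reported and 112 did not. Many reported counts were 0, and these stayed by remaining 0, so the numbers are no measure of how stable the calls were. DESeq2 gave 2, 1 and 3 members at 3 h against light alone, probe alone and DMSO, 2 at 6 h against DMSO, 4 at 12 h against probe alone, 8 at 12 h for light alone against probe alone and 7 for the T-REX effect at 12 h against 3 h. The RUV covariates gave 32, 4 and 30 at 3 h in the same order, 3 for probe alone against DMSO and 14 for light alone against probe alone. At 6 h they gave 1 against probe alone, 6 against DMSO, 3 for light alone against DMSO and 1 for probe alone against DMSO, and at 12 h 1, 9 and 9 for T-REX, 3 for light alone against DMSO, 14 for probe alone against DMSO and 17 for light alone against probe alone. limma gave 0 at 3 h and 1 at 12 h for T-REX against DMSO, and 1 for light alone against probe alone at 12 h. A fit of only the 2 arms gave 0 for T-REX against DMSO at 3 h, 1 and 1 at 6 h against probe alone and DMSO, 1, 3 and 0 at 12 h, 0 for probe alone against DMSO and 8 for light alone against probe alone. The cause was not tested. These are counts of members, and the fits also changed the share of all genes called. The rule of 2 or more controls shows this at 3, 6 and 12 h. It was met by 14.4%, 2.34% and 8.95% of all genes with the RUV covariates, beside 0.947%, 0.136% and 1.4% in the fit reported above. A count here is thus no result about these RNAs by itself.

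The correlations of same-numbered libraries were all above 0 only for T-REX and probe alone at 6 h. At 6 h their median exceeded that of differently numbered libraries for T-REX and light alone (0.23 against -0.10). So it did for T-REX and probe alone (0.31 against -0.04) and for light alone and probe alone (0.29 against -0.15). For DMSO with each other arm at 6 h it was lower. At 3 h T-REX and probe alone gave 0.32 against -0.12. Whether libraries were partly paired is thus not settled. The replicate block gave 1 for T-REX against DMSO at 12 h and 2 for probe alone against DMSO at 12 h, and moved no other count past 1.5 times.

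Leaving out each library in turn gave 0 to 1, 0 to 2 and 0 to 2 calls for T-REX against light alone, probe alone and DMSO at 3 h, 0 to 0, 0 to 1 and 0 to 1 at 6 h, and 0 to 0, 0 to 6 and 0 to 9 at 12 h. Light alone against DMSO gave 0 to 2 and probe alone against DMSO 0 to 10 at 12 h, and light alone against probe alone 0 to 1 at 3 h and 1 to 7 at 12 h. Over time the ranges from 3 h to 6 h and to 12 h were 2 to 25 and 10 to 34 in T-REX, 2 to 4 and 3 to 8 in light alone, 2 to 4 and 4 to 8 in probe alone, and 1 to 6 and 1 to 10 in DMSO. The T-REX effect at 12 h against 3 h gave 0 to 10. The lowest values in T-REX came without T-REX 3 h replicate 3. All these ranges count members only, without the share of all genes called in each fit. The rule of 2 or more controls was met by 0 members at each time under RLE factors, no filter and scaling without the small RNAs. The same held under the replicate block and limma. With DESeq2 it was met by 2 at 3 h, beside 3.48% of all genes. With only the 2 arms it was met by 1 (RN7SKP80, lower) at 6 h, beside 0.286%. With the RUV covariates it was met by 26 at 3 h and 4 at 12 h, beside 14.4% and 8.95%.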
